A study of Mus musculus with 6 samples.

Results

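Fibronectin and the matricellular proteins were followed as 10 genes of the count table, chosen by symbol: Fn1, Sparc, Sparcl1, Spp1, Postn, Tnc, Thbs1, Thbs2, Ctgf and Cyr61. All 10 were present among 18197 symbols, and all 10 passed the filter on low counts. The libraries came from cancer-associated fibroblasts sorted by flow cytometry from mammary tumours of C57BL/6 mice, in which the polyoma middle T oncogene (PyMT) drives the tumour in every animal of both groups. By their labels, 3 libraries were from PyMT mice with a knockout (KO) of mPGES-1, microsomal prostaglandin E synthase-1, the enzyme that makes prostaglandin E2, and 3 were from WT PyMT mice. Tumours were taken after 16 to 20 weeks, cDNA went through 16 cycles of PCR, and single reads of 75 cycles were taken. The surface markers of the sort, the cells in which the gene is deleted and whether each library is 1 animal are not stated in the labels, so p-values here reflect the scatter of these libraries alone and it may be technical.

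Matricellular proteins are secreted into the extracellular matrix but do little to hold it together; they bind matrix fibres, growth factors and cell-surface receptors and so change how cells attach, migrate and signal. Fibronectin is a structural glycoprotein that cells pull into fibrils through integrins, and many matricellular proteins bind to it. In tumours, activated fibroblasts are a known source of most of them, while osteopontin (Spp1) is also made by macrophages and epithelial cells and Sparcl1 by vascular mural and endothelial cells.

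Total counts ran from 23013498 to 37249186 in mPGES-1 KO-labelled libraries and from 37432510 to 43648450 in those labelled WT. Ptges, which codes for that enzyme, went the other way from its label: it stood at 150.3 ± 31.1 CPM under the mPGES-1 KO label against 26.3 ± 6.49 CPM in those labelled WT (SD, n = 3 each; CPM are counts per 1000000 of the scaled library total), with a log2 fold change of 2.51 ± 0.31 (SE; edgeR adjusted p = 0.0171). Possible readings include wrong labels and counted reads from exons that the deletion leaves, and others are not excluded. No reading was tested, and every direction below is drawn from the labels. Fibroblast markers were present in each library, with 10 listed genes taking 0.654 to 1.73% of counts under the mPGES-1 KO label and 0.969 to 2.61% under the WT label; 1 of the 10, Thy1, was called lower (log2 fold change -3.22 ± 0.44, SE; edgeR adjusted p = 0.0184). Markers of other cells were present too. The 13 pericyte markers took 0.0189 to 0.0326% of counts in mPGES-1 KO-labelled libraries against 0.324 to 0.861% in those labelled WT, with 10 called lower. The 15 luminal epithelial markers took 3.37 to 5.09% under the mPGES-1 KO label against 0.761 to 1.35% under the WT label, with 6 called higher. Of all 16543 genes tested, 1.56% were called lower and 1.2% higher. The 12 macrophage and leukocyte markers took 0.0624 to 0.269% under the mPGES-1 KO label and 0.0428 to 0.173% under the WT label. For 9 endothelial markers it was 0.00153 to 0.0104% under the mPGES-1 KO label and 0.00402 to 0.0106% under the WT label. The 6 myoepithelial markers took 0.0118 to 0.0221% under the mPGES-1 KO label and 0.00552 to 0.0162% under the WT label. For 8 mitochondrially encoded genes the share was 2.06 to 2.81% under the mPGES-1 KO label and 0.569 to 2.31% under the WT label. In these 4 lists 0 were called by edgeR (at an unadjusted p under 0.05, 2 higher of the macrophage, 2 lower of the endothelial, 0 of the myoepithelial and 2 higher of the mitochondrial genes). None of the pericyte or luminal markers was at 0 in any library; Tie1 and Cdh5 (endothelial), Mrc1 (macrophage) and Oxtr (myoepithelial) were at 0 in some. In sorted bulk samples fewer cells of a type and less RNA per cell cannot be told apart.

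Of the 10 genes, Sparc alone was lower by the test, and none was higher. Sparcl1, Ctgf and Thbs2 were also lower in each mPGES-1 KO-labelled library than in any labelled WT without passing it. Fn1, Postn, Tnc, Thbs1, Spp1 and Cyr61 overlapped between the labels. Calls were made at an adjusted p below 0.05 in edgeR's quasi-likelihood test with Benjamini-Hochberg adjustment over 16543 genes, which called 1.56% of them lower and 1.2% higher, or 2.76% in all. At an unadjusted p under 0.05 the same test had 4 of the 10 lower and 0 higher, where 3157 of all 16543 genes were so in either direction. DESeq2, at its adjusted p, called 3 of the 10 lower and 0 higher, and 2108 of all genes in either direction. Of the 10, 4 lay wholly lower in mPGES-1 KO-labelled libraries, where 15.7% of all genes did so, and 0 wholly higher, where 12.2% did (27.9% in either direction). The median log2 fold change (mPGES-1 KO over WT) was -0.84 over the 10 genes and -0.04 over all genes tested.

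**Figure D1:**
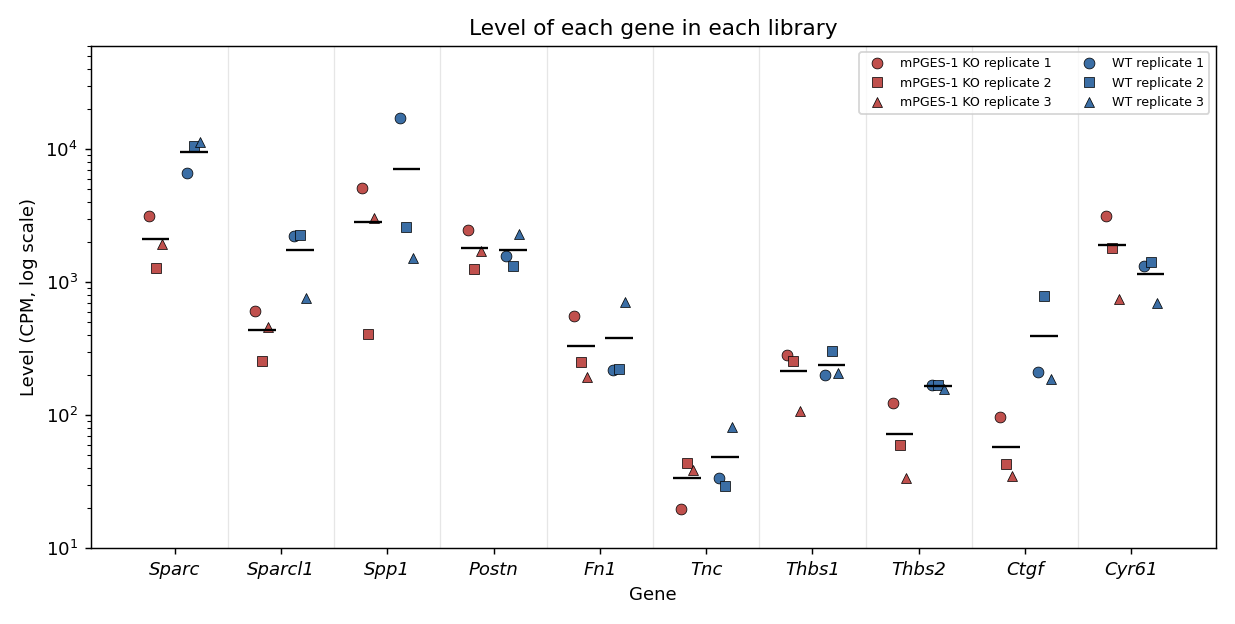
Level of each of the 10 genes in each library, in CPM on a log scale, with the mean of each group as a bar (mPGES-1 KO left and red, WT right and blue; 3 libraries each). Sparc, Sparcl1, Thbs2 and Ctgf do not overlap between the labels, and Spp1 spreads widest within a label.

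**Figure D2:**
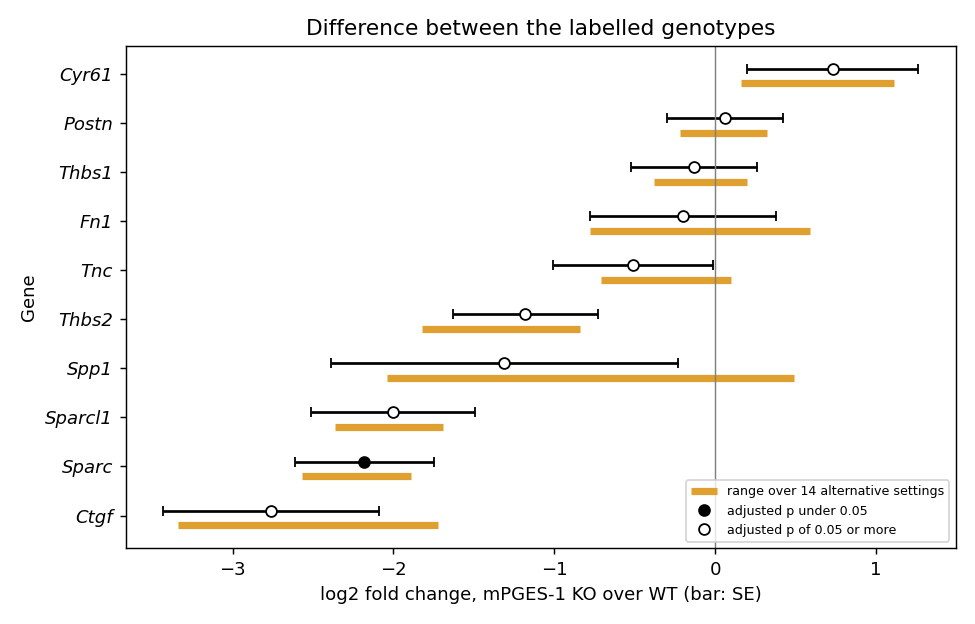
log2 fold change of each gene, mPGES-1 KO over WT, with its standard error (black) and the range of its value over 14 alternative settings (orange). Sparc is the filled point, past an adjusted p of 0.05, and the orange ranges of Fn1, Postn, Thbs1, Tnc and Spp1 cross 0.

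Together the 10 genes took 1.53, 0.588 and 0.787% of counts in mPGES-1 KO-labelled replicates 1, 2 and 3, against 2.99, 2.1 and 1.75% in WT replicates 1, 2 and 3. Spp1 and Sparc together took 0.813, 0.174 and 0.47% in mPGES-1 KO-labelled replicates 1 to 3, against 2.39, 1.4 and 1.25% in WT replicates 1 to 3. The other 8 genes took 0.716, 0.414 and 0.317% in mPGES-1 KO-labelled replicates 1 to 3 and 0.601, 0.693 and 0.495% in WT replicates 1 to 3, which overlap. Per kilobase of exons (RPKM) the order from high to low was Spp1, Cyr61, Sparc, Postn, Sparcl1, Thbs1, Fn1, Ctgf, Thbs2 and Tnc in mPGES-1 KO-labelled libraries. Under the WT label it was Spp1, Sparc, Sparcl1, Cyr61, Postn, Ctgf, Thbs1, Fn1, Thbs2 and Tnc. Neighbours in that order mostly overlapped in level: under the mPGES-1 KO label only Sparc and Postn, and Sparcl1 and Thbs1, were apart, and under the WT label only Sparc and Sparcl1, Cyr61 and Postn, Ctgf and Thbs1, and Thbs2 and Tnc. Mean levels ran from 4.37 RPKM for Tnc to 1736 RPKM for Spp1 in mPGES-1 KO-labelled libraries and from 6.20 to 4295 RPKM for the same genes in those labelled WT.

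Within the mPGES-1 KO label, replicate 1 held the highest level of 9 of the 10 genes, Tnc being the exception. It also had the highest share of fibroblast markers of that label, 1.73% against 0.654 and 0.892% in replicates 2 and 3, and its part in the levels was not tested. In the WT label the peak was divided, with 2 genes highest in replicate 1, 4 in replicate 2 and 4 in replicate 3.

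**Figure D3:**
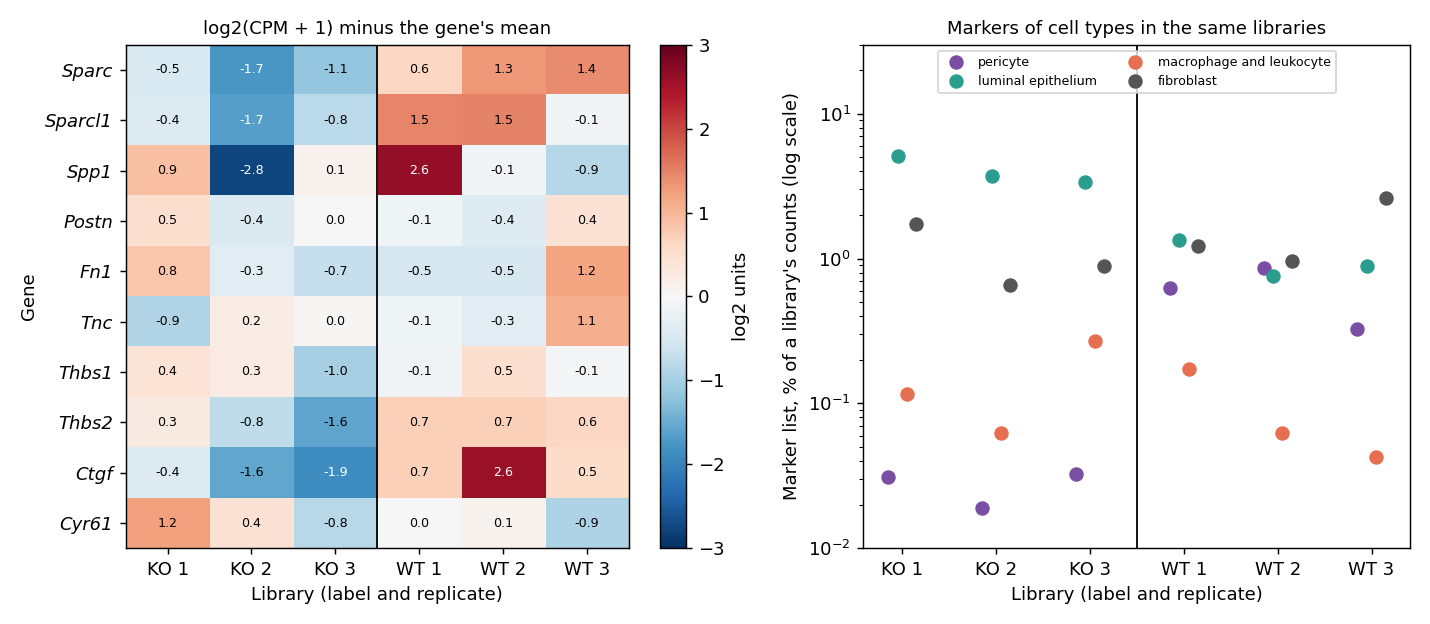
Left, log2(CPM + 1) of each gene in each library minus the gene's mean over the 6 libraries. Right, the share of a library's counts on pericyte, luminal epithelial, macrophage and leukocyte, and fibroblast markers, on a log scale; Sparc, Sparcl1, Thbs2 and Ctgf are below their means in mPGES-1 KO replicates 2 and 3; pericyte markers take 0.0189 to 0.0326% of counts over the 3 mPGES-1 KO libraries.

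Promoter windows were read for 6 of the 10 genes from RefSeq sequences on GRCm38.p6 and searched on both strands for GGAATG (the TEAD element), TGANTCA (AP-1), TGACG (the core of the cAMP response element), TATAAA and GGGCGG (the GC box). Shown are the 250 bases before the RefSeq start for Cyr61 and Thbs2, which encode a CCN protein and a thrombospondin. Their log2 fold changes had opposite signs, and neither gene was called by edgeR. For Postn, whose ranges nearly coincided, the 250 bases before the second of its RefSeq starts are shown. Capitals mark the matches on either strand.
Cyr61 (chr3:145649986-145650235, minus strand): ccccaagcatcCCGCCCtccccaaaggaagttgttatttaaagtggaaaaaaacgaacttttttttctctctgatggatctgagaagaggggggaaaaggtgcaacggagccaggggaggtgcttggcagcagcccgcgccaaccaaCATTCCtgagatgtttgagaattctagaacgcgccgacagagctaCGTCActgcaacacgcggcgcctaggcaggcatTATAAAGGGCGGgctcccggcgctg
Thbs2 (chr17:14694263-14694512, minus strand): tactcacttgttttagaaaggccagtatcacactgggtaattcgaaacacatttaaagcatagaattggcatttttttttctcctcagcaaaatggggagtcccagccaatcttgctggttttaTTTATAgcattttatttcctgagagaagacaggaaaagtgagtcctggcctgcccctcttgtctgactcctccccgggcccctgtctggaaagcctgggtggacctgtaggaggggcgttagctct
Postn (chr3:54360857-54361106, plus strand): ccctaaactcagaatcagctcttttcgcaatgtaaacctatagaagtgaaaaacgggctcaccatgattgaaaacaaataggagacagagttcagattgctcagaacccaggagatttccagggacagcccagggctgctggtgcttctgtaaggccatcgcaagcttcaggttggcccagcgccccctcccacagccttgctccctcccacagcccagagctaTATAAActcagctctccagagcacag
The Cyr61 window held a TEAD element 103 to 98 bases before the start and a TGACG core 58 to 54 bases before it, both on the other strand. TATAAA lay 25 to 20 bases and GGGCGG 19 to 14 bases before the start, side by side on the strand of the gene. GGGCGG also lay on the other strand, 239 to 234 bases before the start. The Postn window shown held TATAAA 26 to 21 bases before its start. The window before the other Postn start (chr3:54359017-54359266), not shown, held 0 matches to these motifs. In the Thbs2 window TATAAA lay on the other strand, 126 to 121 bases before the start. None of the 3 held TGANTCA. The window of Sparc, not shown, held 0 matches, and 238 of its 250 bases lie in annotated exons of Sparc. Also not shown are 2 windows each of Spp1 and Tnc. For Spp1 window 1 held TATAAA. Window 2 of Spp1 held 0 matches, and all 250 of its bases lie in annotated exons of Gm42793. The 2 Tnc windows (chr4:64047016-64047265 and chr4:64046937-64047186) overlap, and both held the same TATAAA and the same GGGCGG. Over 32851 windows of the same length, 12.6% held GGAATG, 6.75% TGANTCA, 17.8% TGACG, 12.4% TATAAA and 32.7% GGGCGG, and the matches describe letters, not bound sites.

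Sparc encodes osteonectin, a collagen-binding glycoprotein that assists the assembly of collagen fibrils and basement membranes. It lies on the minus strand of chromosome 11 (GRCm38, 55394500 to 55423183). Its level was 3130, 1277 and 1933 CPM in mPGES-1 KO-labelled replicates 1, 2 and 3, against 6624, 10610 and 11450 CPM in WT replicates 1, 2 and 3. The highest library labelled mPGES-1 KO was thus below the lowest labelled WT. The means were 2113 ± 939 CPM under the mPGES-1 KO label and 9561 ± 2577 CPM under the WT label (SD, n = 3 each), for a log2 fold change of -2.18 ± 0.43 (SE; 4.52-fold lower) with an edgeR adjusted p = 0.0451. The call held without WT replicate 1. It was lost without mPGES-1 KO replicate 1 (edgeR adjusted p = 0.0585), 2 (0.164) or 3 (0.145) and without WT replicate 2 (0.158) or 3 (0.112). Over 14 alternatives the log2 fold change ran from -2.57 to -1.89. In the same libraries pericyte markers took 21.9-fold less of the counts under the mPGES-1 KO label. Within the WT label they took 0.622, 0.861 and 0.324% in replicates 1 to 3, lowest where Sparc was highest. Within the mPGES-1 KO label they took 0.0311, 0.0189 and 0.0326%, lowest where Sparc was lowest. The part of those cells in the Sparc level was not tested. Over the 6 libraries the profiles nearest to Sparc, by Euclidean distance of centred log2(CPM + 1) among 10919 genes, were those of Fcgrt, the heavy chain of the neonatal Fc receptor, at 0.262 log2 units, Gpx8, a peroxidase of the endoplasmic reticulum, at 0.326, and Ttyh2 at 0.384.

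Sparcl1 encodes hevin, the closest relative of SPARC, a secreted anti-adhesive protein. Sparcl1 and Spp1 sit 321.4 kb apart on chromosome 5 (104079111 to 104113733 on the minus strand and 104435118 to 104441050 on the plus strand), in the cluster of secretory calcium-binding phosphoproteins that also holds Dmp1. Sparcl1 stood at 606, 255 and 461 CPM in mPGES-1 KO-labelled replicates 1 to 3, against 2242, 2268 and 763 CPM in WT replicates 1 to 3. The groups did not overlap, but WT replicate 3 lay near the libraries labelled mPGES-1 KO. The log2 fold change was -2.00 ± 0.51 (SE) with an edgeR adjusted p = 0.0861, between -2.36 and -1.69 over 14 alternatives, and DESeq2 and limma-voom called it lower (adjusted p = 0.00152 and 0.0301). The nearest profiles were those of Xlr at 0.362 log2 units, Rgs12, a regulator of G-protein signalling, at 0.567 and Dlc1, a GTPase-activating protein, at 0.636. WT replicate 3 was also the WT library with the lowest share of pericyte markers, 0.324% against 0.622 and 0.861% in WT replicates 1 and 2, whose part in the level was not tested.

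Spp1 encodes osteopontin, a phosphorylated ligand of integrins and CD44. Its level was 5154, 405 and 3022 CPM in mPGES-1 KO-labelled replicates 1, 2 and 3, against 17110, 2605 and 1518 CPM in WT replicates 1, 2 and 3. The groups overlapped, and the highest library held 12.7 times the lowest under the mPGES-1 KO label and 11.3 times under the WT label. The log2 fold change was -1.31 ± 1.08 (SE) with an edgeR adjusted p = 0.586, and without WT replicate 1 it was 0.49 ± 0.90 (edgeR adjusted p = 0.825), so the direction rested on that library. Macrophage and leukocyte markers took 0.117, 0.0624 and 0.269% of counts in mPGES-1 KO-labelled replicates 1 to 3 and 0.173, 0.0622 and 0.0428% in WT replicates 1 to 3, and their part in the Spp1 level was not tested. No profile lay close to that of Spp1. The least distant were Icosl at 1.62 log2 units, Spi1, which encodes the myeloid transcription factor PU.1, at 1.68 and Uggt2 at 1.78. For the other members the nearest profiles lay at 0.191 to 0.815 log2 units. Of the exonic bases of Spp1, 18.8% are shared with the same-strand annotated gene Gm42793, and how reads there were counted is not known.

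Fn1, on the minus strand of chromosome 1 (71585520 to 71653200), encodes fibronectin. It reached 558, 252 and 194 CPM in mPGES-1 KO-labelled replicates 1 to 3, against 220, 223 and 710 CPM in WT replicates 1 to 3. A library of each label stood high, mPGES-1 KO replicate 1 and WT replicate 3, and the rest lay together. The log2 fold change was -0.20 ± 0.58 (SE; edgeR adjusted p = 0.902), and it ran from -0.78 to 0.59 over 14 alternatives, the last without WT replicate 3. The nearest profiles included those of Coro2b at 0.501 log2 units and the dynamin gene Dnm3 at 0.502; among the 10 genes Postn was nearest, at 1.14. Replicate 1 labelled mPGES-1 KO and WT replicate 3 also had the highest share of fibroblast markers under each label, 1.73 and 2.61%, and the part of that share was not tested. Spliced forms of fibronectin are not resolved by counts per symbol.

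Postn, on the plus strand of chromosome 3 (54361109 to 54391037), encodes periostin, which links collagen, fibronectin and tenascin-C in fibrous stroma and is widely used to mark activated fibroblasts. It had 2460, 1266 and 1719 CPM in mPGES-1 KO-labelled replicates 1 to 3, against 1582, 1318 and 2324 CPM in WT replicates 1 to 3. The ranges nearly coincided. Its mean was 1815 ± 602 CPM under the mPGES-1 KO label against 1741 ± 522 CPM under the WT label (SD, n = 3 each), and the log2 fold change of 0.06 ± 0.36 (SE; edgeR adjusted p = 0.955) changed sign without mPGES-1 KO replicate 1 (-0.22) and without WT replicate 2 (-0.05). The nearest profiles were those of Fmo5 and Cd47, a receptor of thrombospondin-1, both at 0.344 log2 units, and Aifm2 at 0.348.

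Tnc, on the minus strand of chromosome 4 (63959785 to 64047015), encodes tenascin-C, a large glycoprotein of wounds and tumour stroma, and was the lowest of the 10 genes per kilobase. It had 19.6, 43.6 and 38.6 CPM in mPGES-1 KO-labelled replicates 1 to 3, against 34.0, 29.3 and 81.2 CPM in WT replicates 1 to 3. WT replicate 3 stood above the other 5 libraries, which overlapped. The log2 fold change was -0.51 ± 0.50 (SE; edgeR adjusted p = 0.659), and without WT replicate 3 it was 0.10 ± 0.46. The nearest profiles were those of the spermidine synthase gene Srm at 0.514 log2 units, Ift20 at 0.589 and Mettl1 at 0.652.

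The thrombospondins Thbs1 and Thbs2 are trimeric proteins that inhibit angiogenesis through CD36 and CD47, and thrombospondin-1 also activates latent TGF-beta. Thbs1 (chromosome 2, plus strand, 118111876 to 118127133) had 286, 257 and 108 CPM in mPGES-1 KO-labelled replicates 1 to 3, against 200, 306 and 207 CPM in WT replicates 1 to 3. The groups overlapped, with mPGES-1 KO replicate 3 the lowest library (log2 fold change -0.13 ± 0.39, SE; edgeR adjusted p = 0.906; 0.20 without that library and 0.16 without WT replicate 2). Thbs2 (chromosome 17, minus strand, 14665500 to 14694235) had 125, 60.2 and 33.6 CPM in mPGES-1 KO-labelled replicates 1 to 3, against 170, 168.5 and 158 CPM in WT replicates 1 to 3. All 3 libraries labelled mPGES-1 KO lay below the WT libraries, which were close to each other. Its log2 fold change of -1.18 ± 0.45 (SE) did not pass (edgeR adjusted p = 0.205), and it ran from -1.82 to -0.84 over 14 alternatives. Limma-voom called it lower (adjusted p = 0.042). The nearest profiles were those of Tbc1d2b at 0.241 log2 units, the cation channel gene Pkd2 at 0.299 and the zinc-finger gene Zfp329 at 0.413. Those of Thbs1 were Tex9 at 0.191 and Trrap at 0.305.

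Ctgf and Cyr61 encode CCN2 and CCN1, the founding members of the CCN family, early-response proteins that bind integrins and heparan sulphate and are textbook targets of YAP and TAZ with TEAD factors and of TGF-beta or serum. Ctgf (chromosome 10, plus strand, 24595442 to 24598683) had 96.9, 43.0 and 34.7 CPM in mPGES-1 KO-labelled replicates 1 to 3, against 212, 784 and 189 CPM in WT replicates 1 to 3. All 3 libraries labelled mPGES-1 KO were below those labelled WT, and WT replicate 2 was far above the other 5. The log2 fold change was the most negative of the 10, -2.76 ± 0.67 (SE; 6.78-fold lower), with an edgeR adjusted p = 0.0765, and it ran from -3.34 to -1.72 over 14 alternatives. DESeq2 and limma-voom called it lower (adjusted p = 2.74e-04 and 0.0273). Without WT replicate 2 it was -1.72. The nearest profiles were those of Stard13, a GTPase-activating protein, at 0.399 log2 units, Plekhh3 at 0.662 and Prkar1b, a regulatory subunit of protein kinase A, at 0.815. WT replicate 2 also held the largest share of pericyte markers, 0.861%, whose part in the level was not tested. Of the exonic bases of Ctgf, 23.2% are shared with Gm15270 on the opposite strand. The reads do not mark strand, and how those in the shared bases were counted is not known.

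Cyr61 (chromosome 3, minus strand, 145646976 to 145649981) did not follow Ctgf. It had 3147, 1813 and 754 CPM in mPGES-1 KO-labelled replicates 1 to 3, against 1317, 1431 and 699.5 CPM in WT replicates 1 to 3. Replicates 1 and 2 labelled mPGES-1 KO were above every WT library and replicate 3 lay within their range. The log2 fold change was 0.73 ± 0.53 (SE; edgeR adjusted p = 0.528), and it stayed positive, from 0.16 to 1.11, over 14 alternatives. Among the 10 genes the profile nearest to Cyr61 was that of Thbs1, at 1.3 log2 units, and the nearest of all were those of Rprd2, Aurka and Arhgap17, at 0.444 to 0.563.

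Ratios of counts within a library do not depend on how libraries are scaled, and were computed for 3 family pairs after their values were seen. Ctgf counts were 0.0308, 0.0237 and 0.0461 of Cyr61 counts in mPGES-1 KO-labelled replicates 1 to 3, against 0.161, 0.548 and 0.27 in WT replicates 1 to 3. The ratio was 8.91-fold lower under the mPGES-1 KO label (log2 difference -3.16 ± 0.58, SE) and the groups did not overlap. Thbs2 counts were 0.437, 0.234 and 0.312 of Thbs1 counts in mPGES-1 KO-labelled replicates 1 to 3, against 0.849, 0.551 and 0.766 in WT replicates 1 to 3, again with no overlap (log2 difference -1.16 ± 0.32, SE). For Sparc over Sparcl1 the ratios were 5.16, 5.003 and 4.19 in mPGES-1 KO-labelled replicates 1 to 3, against 2.95, 4.68 and 15 in WT replicates 1 to 3, which overlap (log2 difference -0.31 ± 0.70, SE; 0.36 without WT replicate 3). A two-sided exact permutation test gave p = 0.1 for Ctgf over Cyr61 and for Thbs2 over Thbs1, the smallest that 3 libraries against 3 allow, and p = 0.9 for Sparc over Sparcl1. Adjusted over the 3 pairs these were 0.15, 0.15 and 0.9.

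**Figure D4:**
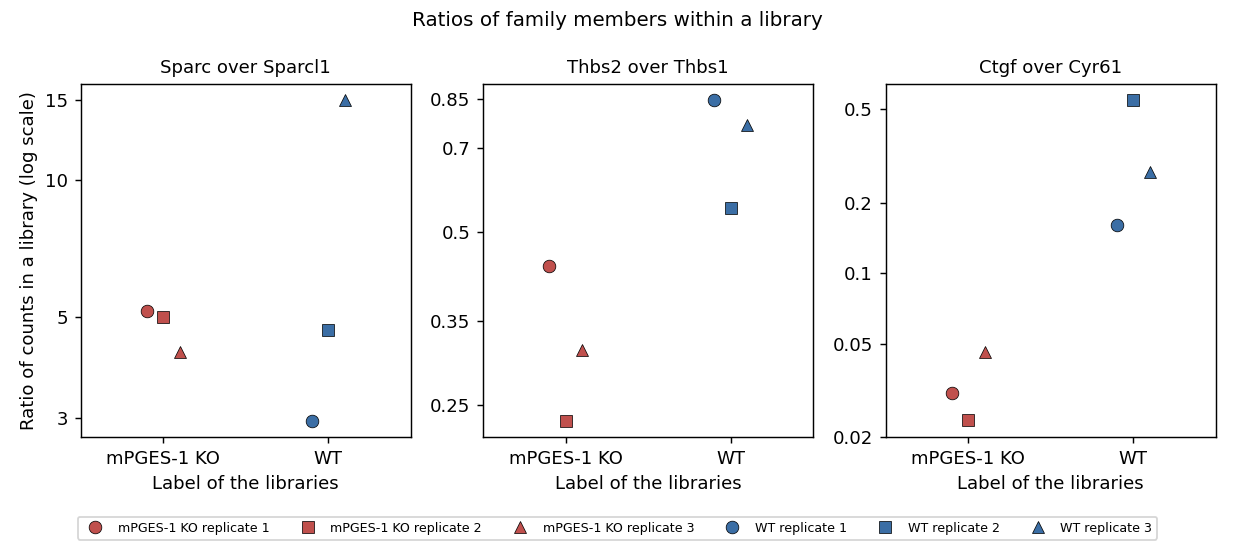
Ratio of the counts of 2 family members within each library, on a log scale, for 3 libraries labelled mPGES-1 KO (red, left) and 3 labelled WT (blue, right). Ctgf over Cyr61 and Thbs2 over Thbs1 are lower in every library labelled mPGES-1 KO than in any labelled WT, while Sparc over Sparcl1 overlaps.

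Relatives of the 10 genes in 6 families numbered 15 tested, of which edgeR called 0. At an unadjusted p under 0.05 it had 1 higher and 4 lower, where 3157 of all 16543 genes were so in either direction. DESeq2 called 1 higher and 2 lower, and limma-voom 0 higher and 1 lower. Those tools called 2108 and 1944 of all genes in either direction. In the SPARC family, Fstl1, a secreted follistatin-like protein, had 530, 216 and 254 CPM in mPGES-1 KO-labelled replicates 1 to 3, against 529, 728 and 1090 CPM in WT replicates 1 to 3, replicate 1 of each label being level (log2 fold change -1.23 ± 0.43, SE; edgeR adjusted p = 0.176), while Smoc2 overlapped widely (0.17 ± 0.64, 0.924). Dmp1, the matrix phosphoprotein gene between Sparcl1 and Spp1, had 5.19, 1.89 and 7.65 CPM in mPGES-1 KO-labelled replicates 1 to 3, against 64.0, 118.6 and 19.1 CPM in WT replicates 1 to 3, with no overlap (log2 fold change -3.77 ± 0.79, SE; edgeR adjusted p = 0.0518). Its neighbours did not share 1 pattern: Sparcl1 was lower in each mPGES-1 KO-labelled library and Spp1 overlapped. Tnxb, which encodes tenascin-X, had 38.7, 12.0 and 14.6 CPM in mPGES-1 KO-labelled replicates, against 66.5, 40.4 and 255 CPM in WT replicates (log2 fold change -2.47 ± 0.78, SE; edgeR adjusted p = 0.134). Thbs4 had 204, 42.4 and 110.1 CPM in mPGES-1 KO-labelled replicates, against 0.251, 20.7 and 45.1 CPM in WT replicates (log2 fold change 2.43 ± 1.31, SE; edgeR adjusted p = 0.378), the opposite sign to Thbs3 (-1.66 ± 0.67, 0.234). The CCN gene Nov was higher in each mPGES-1 KO-labelled library, at 14.8, 41.0 and 16.6 CPM against 9.34, 7.65 and 3.46 CPM in those labelled WT, without passing (log2 fold change 1.82 ± 0.63, SE; edgeR adjusted p = 0.168), and Wisp2 and Wisp1 overlapped (-0.49 ± 0.73 and -0.86 ± 0.54). Of the fasciclin relatives of periostin, Tgfbi overlapped (0.19 ± 0.54).

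Of 16 integrin subunits and other receptors 1 rose and 0 fell, where 1.2% and 1.56% of all genes did, and the median log2 fold change was 0.28 against -0.04 over all genes. DESeq2 called 2 higher and 1 lower (2108 of all genes in either direction), and limma-voom 1 higher and 1 lower (1944). At an unadjusted p under 0.05 edgeR had 3 higher and 1 lower (3157 of all 16543 genes in either direction). Sdc4, the heparan sulphate receptor that works with integrins on fibronectin, rose to 469, 553 and 564 CPM in mPGES-1 KO-labelled replicates 1 to 3, against 89.5, 66.7 and 88.9 CPM in WT replicates 1 to 3 (log2 fold change 2.69 ± 0.26, SE; edgeR adjusted p = 0.0143). The call was lost without mPGES-1 KO replicate 2 (edgeR adjusted p = 0.0881) or 3 (0.063) and without WT replicate 2 (0.0554). Luminal epithelial markers took 4.06-fold more of the counts in the same libraries, and their part in the Sdc4 level was not tested. The most abundant others were Itgb1, the shared beta chain of most fibronectin receptors (log2 fold change -0.64 ± 0.37, edgeR adjusted p = 0.414), Cd47 (-0.02 ± 0.30, 0.984) and Itgb5, a partner of the alpha-v chain (-1.70 ± 0.54, 0.139).

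Among 15 genes of fibronectin assembly and its matrix partners, 1 fell and 0 rose, 13 had a negative log2 fold change, and the median was -1.17 against -0.04 over all genes. Over all genes 1.56% fell and 1.2% rose. The count lower was 5 with DESeq2, 6 with limma-voom and 6 at an unadjusted p under 0.05 in edgeR. In each, 0 were higher. These settings had far more of all genes than the shares just given. In either direction DESeq2 called 2108 and limma-voom 1944, and 3157 of 16543 were under that unadjusted p in edgeR. Tln1, the talin that couples integrins to actin, fell to 53.8, 43.0 and 56.1 CPM in mPGES-1 KO-labelled replicates 1 to 3, against 133.5, 209 and 210.1 CPM in WT replicates 1 to 3 (log2 fold change -1.85 ± 0.29, SE; edgeR adjusted p = 0.026). That call was lost when each of the 3 libraries labelled mPGES-1 KO was left out in turn (edgeR adjusted p from 0.0641 to 0.119) and without WT replicate 2 (0.117) or 3 (0.0714). The fibrillar collagen genes Col1a1, Col3a1 and Col1a2, whose products fibronectin and SPARC bind, were the most abundant of the list, with log2 fold changes of -2.50 ± 0.68, -1.17 ± 0.58 and -1.36 ± 0.61 (SE; edgeR adjusted p = 0.1, 0.338 and 0.279).

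The inputs that are known to drive CCN and other matricellular genes gave mixed values. Of 12 genes of TGF-beta signalling, 1 rose and 1 fell, where 1.2% and 1.56% of all genes did. The median log2 fold change was 0.26 against -0.04 over all genes. DESeq2 called 1 higher and 1 lower (2108 of all genes in either direction), and limma-voom 1 higher and 2 lower (1944). At an unadjusted p under 0.05 edgeR had 2 higher and 2 lower (3157 of all 16543 genes in either direction). Skil, which encodes the SMAD corepressor SnoN, rose to 267, 475 and 413 CPM in mPGES-1 KO-labelled replicates 1 to 3, against 63.6, 31.5 and 44.4 CPM in WT replicates 1 to 3 (log2 fold change 3.05 ± 0.37, SE; edgeR adjusted p = 0.0171). That call was lost without mPGES-1 KO replicate 2 or 3 or WT replicate 2 (edgeR adjusted p from 0.0677 to 0.0881). The most abundant others were the ligand Tgfb3 (log2 fold change 0.33 ± 0.34, SE; edgeR adjusted p = 0.665) and the receptor Tgfbr2 (-0.37 ± 0.36, 0.651).

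Of 17 genes of YAP, TAZ and SRF signalling, 2 fell and 0 rose, where 1.56% and 1.2% of all genes did. In this list 14 had a negative log2 fold change, and the median was -0.52 against -0.04 over all genes. DESeq2 called 3 lower (2108 of all genes in either direction) and limma-voom 1 (1944), with 0 higher in each. At an unadjusted p under 0.05 edgeR had 4 lower and 0 higher (3157 of all 16543 genes in either direction). Ajuba, a LIM protein that binds LATS kinases, fell to 5.16, 5.28 and 4.81 CPM in mPGES-1 KO-labelled replicates 1 to 3, against 63.2, 123.5 and 32.6 CPM in WT replicates 1 to 3 (log2 fold change -3.85 ± 0.54, SE; edgeR adjusted p = 0.0201). Acta2, the SRF target that encodes smooth muscle actin, fell to 188, 63.4 and 123 CPM, against 1129, 1713 and 518 CPM in the libraries labelled WT (log2 fold change -3.16 ± 0.57, SE; edgeR adjusted p = 0.0345). Both calls were lost when each library labelled mPGES-1 KO was left out in turn and without WT replicate 2 (edgeR adjusted p from 0.0613 to 0.13), Acta2 also without WT replicate 1 (0.052) and Ajuba also in limma-voom (adjusted p = 0.0556). The effectors themselves did not pass: Wwtr1, which encodes TAZ, had a log2 fold change of -0.61 ± 0.28 (SE; edgeR adjusted p = 0.301) and Tead1 of -0.02 ± 0.34 (0.986). Acta2 is also made by pericytes, whose markers moved with it as given above, and their part in its level was not tested.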

How the data were processed

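RNA-seq was run on 6 libraries of sorted cells, and the values used are raw read counts per gene symbol, deposited by the authors without normalization in 1 table of 18197 symbols. Per the submitters' processing notes, FastQC 0.11.5, STAR and mm10 were used; the sources used here give neither the counting program nor any filter. Every library column matched 1 sample by its label.

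The test was the one of edgeR 4.0.16 under R 4.3.3 (filterByExpr, TMM, robust quasi-likelihood fit, two-sided), with no covariate, and Benjamini-Hochberg adjustment ran over all 16543 genes tested. The threshold for a call was an adjusted p of 0.05. The common biological coefficient of variation was 0.818. CPM are counts scaled to the TMM-adjusted library total, and RPKM are CPM per kilobase of merged exons in GENCODE M21 (GRCm38). The standard error is the absolute log2 fold change over the square root of F. Total counts ran from 23013498 to 43648450. The script was tested on simulated data.

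Same-numbered libraries did not deviate together (correlations from -0.063 to 0.028), so no pairing was used. Alternatives were other scalings, filters and tools (DESeq2 1.42.0, limma 3.58.1), thinned counts and each library left out. The genes and lists were chosen with earlier results of these data known. Named are the 10 genes, Ptges, the called genes of each pathway list with up to 3 of its most abundant others, and up to 3 genes nearest in pattern to each of the 10, without predicted genes, Rik names and pseudogenes. Tie1, Cdh5, Mrc1, Oxtr and the ratios were chosen after their values were seen. The reads do not mark strand. Some genes that this rule names are not reported here.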

Additional observations from a re-analysis of the deposited data

How the results depend on the processing

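The number of the 10 genes called lower was 3 with DESeq2 (Sparc, Sparcl1, Ctgf), 4 with limma-voom (Thbs2 added), 3 at an adjusted p under 0.1 and 0 to 1 with a library left out; 0 were called higher under any setting. With the replicate block it was 0, and Sparc had a log2 fold change of -2.25 (edgeR adjusted p = 0.14). Genes called in the table numbered 456, against 2108 with DESeq2, 1944 with limma-voom, 1113 at an adjusted p under 0.1, 0 with the block (2716 at an unadjusted p under 0.05) and 0 to 568 with a library left out (0 without mPGES-1 KO replicate 2 or 3, 1 without WT replicate 2). Signs turned for Fn1 without mPGES-1 KO replicate 2 (0.01) or 3 (0.08) or WT replicate 3 (0.59), Spp1 without WT replicate 1 (0.49), Postn without mPGES-1 KO replicate 1 (-0.22) or WT replicate 2 (-0.05), Tnc without WT replicate 3 (0.10), Thbs1 without mPGES-1 KO replicate 3 (0.20) or WT replicate 2 (0.16), and the Sparc to Sparcl1 ratio without WT replicate 3 (0.36), an alternative chosen after seeing the data. With each library left out in turn the lowest and highest log2 fold changes were -0.78 and 0.59 for Fn1, -2.04 and 0.49 for Spp1, -0.22 and 0.32 for Postn, -0.71 and 0.10 for Tnc, -0.38 and 0.20 for Thbs1, and -0.81 and 0.36 for that ratio. Of the 30 profiles nearest to the 10 genes, 3 for each, 26 stayed among the 3 nearest with log2(CPM + 0.5). Those of Coro2b (for Fn1), Ttyh2 (Sparc), Rgs12 (Sparcl1) and Fmo5 (Postn) did not. The causes were not tested. Each group had 3 libraries, and the lowest count of any of the 10 genes was 535.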
